A study of Mus musculus with 6 samples.

Results

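A set of 10 genes that mark contractile vascular cells was followed in RNA from mouse adrenal glands with and without Armc5. The set held 6 genes of the smooth muscle contractile apparatus (Acta2, Tagln, Myl9, Myh11, Cnn1 and Des) and 4 genes of pericytes and mural cells (Pdgfrb, Rgs5, Mcam and Notch3). Members were found by gene name, each as 1 locus of its own: 10 of the 59699 loci in the deposited count table. Of these loci 53103 carried a name and 21358 passed the filter on low counts, all 10 members among them. The rule finds members by name and uses no measured value, and the names were proposed with earlier results of these data known.

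Mural cells wrap the endothelial tube of a blood vessel: smooth muscle cells around arteries and arterioles, pericytes around capillaries. In the adrenal gland they line the arterioles of the capsule and the dense sinusoids that run from the cortex into the medulla. Contractile genes of smooth muscle are driven by serum response factor (SRF) with its coactivators myocardin and the MRTF proteins, which read actin assembly in the cell; SRF binds a short sequence called the CArG box. Pericytes are recruited to endothelium by PDGF-B acting on its receptor Pdgfrb, and Notch3 keeps mural cells in their differentiated state. ARMC5 recruits substrates to a ubiquitin ligase built on cullin 3, and mutations in the human gene cause macronodular enlargement of both adrenals.

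The samples were 3 wild-type (WT) and 3 Armc5(-/-) (KO) adrenal preparations. All came from female mice of the mixed 129 sv X CD1 background at 30 weeks of age, with no treatment named in the labels. The labels do not say which part of Armc5 was removed, nor whether each sample is a separate animal, so p-values here measure the spread between these samples, which may be technical. Strand-keeping libraries were made from 250 ng of rRNA-depleted RNA and read from both ends over 100 bases.

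Library totals ranged from 70547288 to 130573434 counts, and every member except Cnn1 held at least 313 counts in each library. Armc5 itself held 2763, 3263 and 2233 counts in WT and 395, 269 and 473 in KO, a level 7.47-fold lower (edgeR, adjusted p = 0.00041), so the labels and the targeted gene matched in every library. The tissue label was checked with 6 adrenal cortex loci, whose summed level was 22374 to 37555 CPM (TMM-scaled) in WT and 18564 to 20730 in KO. KO replicate 3 stood apart: the summed level of 6 measured hepatocyte loci was 3110 CPM there, against 16.1 in WT replicate 1 and 0.150 to 3.07 in the remaining libraries. Results that lean on KO replicate 3 are therefore given with and without it.

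SRF target promoters are known for CArG boxes, so these were looked for in the RefSeq promoters (GRCm38.p6, 250 bases before to 50 after the start) of the members. A CArG box is 10 bases long, 2 C, then 6 bases that are A or T, then 2 G, and reads the same way on both strands. Promoters were found for 7 of the 10 members, all but Tagln, Myh11 and Pdgfrb. Acta2 and Myl9 each held 2 boxes when 1 departing base was allowed, and the exact box of Myl9 was the only exact one among the 7. The 4 stretches are all the boxes found, and the search used no measured level. The genes that carry them are 2 of the 3 contractile genes with lower levels in every KO library. Tagln, the other such gene, had no promoter to search, and a link of boxes to levels was not tested. Each stretch is 30 bases from 5′ to 3′ along the gene, with the box in capitals.
Acta2 box 1: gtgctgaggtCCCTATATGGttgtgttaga
Acta2 box 2: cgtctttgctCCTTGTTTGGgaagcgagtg
Myl9 box 1: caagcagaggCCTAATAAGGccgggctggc
Myl9 box 2: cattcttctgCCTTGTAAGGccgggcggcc

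The Acta2 stretches lie on the minus strand at chr19:34255438-34255467 and chr19:34255388-34255417, with the box starting 84 and 34 bases before the RefSeq start. GENCODE M21 places the Acta2 start 217 bases further upstream, so both lie inside an exon of that annotation. The Myl9 stretches lie on the plus strand at chr2:156775293-156775322 and chr2:156775355-156775384, with the box starting 161 and 99 bases before the start and outside annotated exons. An exact box occurred in 1.63% of all 32851 promoters of this length, a box with at most 1 departing base in 9.98%, and at least 2 such boxes in 0.822%. No box of either kind was found in the windows of Cnn1, Des, Rgs5, Mcam and Notch3, which says only that these letters are not in those windows. A match is a description of the sequence, and binding was not measured.

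Among the 6 contractile genes the levels of Acta2, Tagln and Myl9 were lower in every KO library than in every WT library, Cnn1 was higher, and Myh11 and Des overlapped between the groups. Only Tagln passed the test, a fall of 2.05-fold. The 4 pericyte genes overlapped between the groups and none passed. Over the set 1 of 10 genes was called (adjusted p under 0.05), where 1.84% of all tested loci were. An unadjusted p under 0.05 was reached by 4 of 10, where 22.2% of all loci did, and 4 of 10 had no overlap between the groups, where 30.5% of all loci had none. Such shares were common in this comparison, so the counts alone do not set the set apart. The median log2 fold change was -0.15 over the 10 members, -0.37 over the contractile genes and -0.05 over the pericyte genes, beside -0.0063 over all tested loci.

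**Figure D1:**
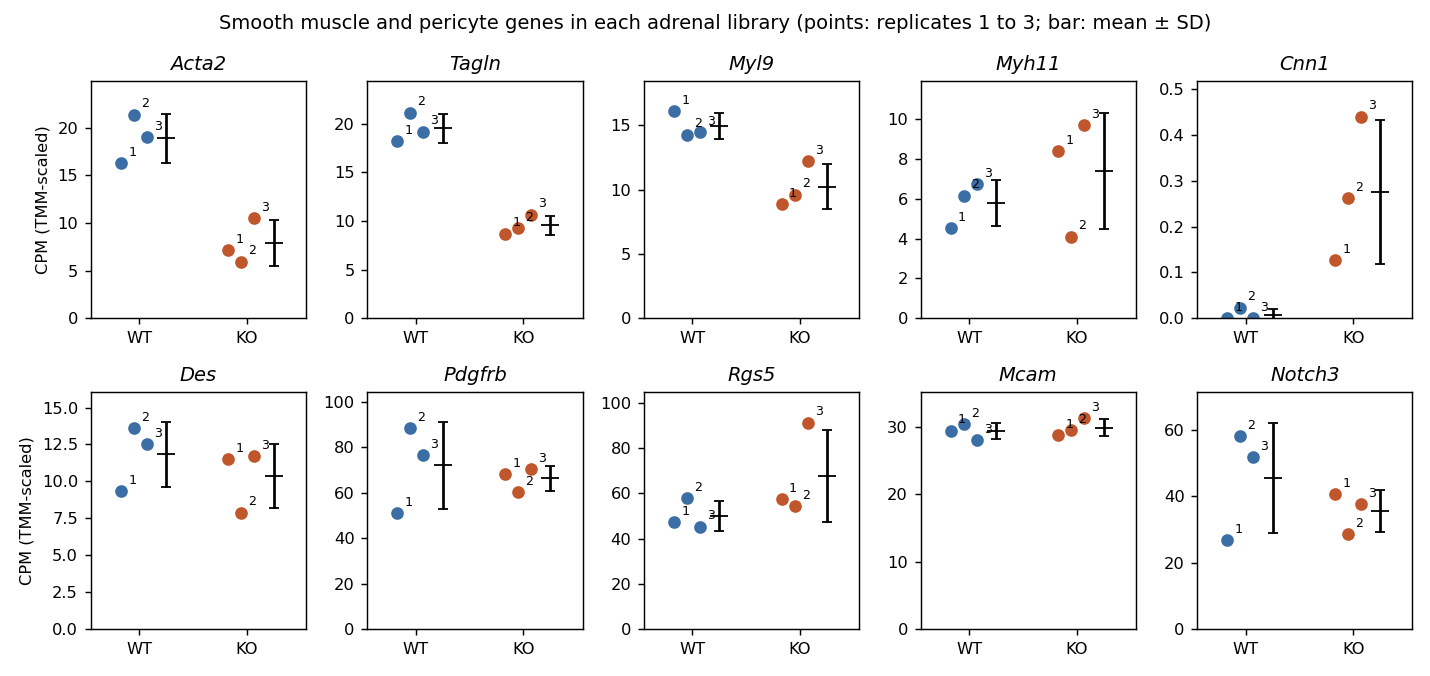
Level of each of the 10 genes in CPM (TMM-scaled) in 3 WT and 3 KO libraries, with replicate numbers beside the points and the mean ± SD as a bar. Acta2, Tagln and Myl9 lie lower in all 3 KO libraries, Cnn1 lies higher, and the other 6 genes overlap between the groups.

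Acta2 encodes smooth muscle alpha-actin, the main thin-filament actin of vascular smooth muscle. Its level was 16.2, 21.4 and 19.0 CPM in the 3 WT libraries and 7.16, 5.94 and 10.5 CPM in the 3 KO libraries. Every KO value lay below every WT value, and the KO libraries were the more scattered, with a highest-to-lowest ratio of 1.77 against 1.32 in WT. Means were 18.9 ± 2.57 CPM for WT and 7.88 ± 2.38 CPM for KO (SD, n = 3 each). Its log2 fold change was -1.26 (SE 0.24), the lowest of the 10, with an adjusted p of 0.0570 by edgeR's quasi-likelihood test, so it was not called. DESeq2 gave Acta2 an adjusted p of 5.91e-05, but called 12.3% of all loci. Without KO replicate 3 its log2 fold change was -1.53, with an edgeR adjusted p of 0.0627. In RNA from whole glands, fewer contractile cells and less of the transcript per cell cannot be told apart, for Acta2 or any other member.

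Tagln encodes transgelin (SM22-alpha), an actin-binding protein of the calponin family and an early marker of smooth muscle. Its locus held 18.2, 21.2 and 19.2 CPM in WT and 8.70, 9.26 and 10.7 CPM in KO. The groups stood well apart, and each was tight, with highest-to-lowest ratios of 1.16 in WT and 1.22 in KO. The mean fell from 19.5 ± 1.49 CPM to 9.54 ± 1.01 CPM (SD, n = 3 each). On the log2 scale this was -1.03 (SE 0.12), with an adjusted p of 0.0205 from edgeR, lower in 3 of 3 KO libraries. The direction held in all 14 alternatives and the call in 7 of them. It was lost with total counts alone (adjusted p = 0.0503), with equal Rn7sk counts (0.0646), with the replicate block (0.117) and without WT replicate 3 (0.105), KO replicate 1 (0.115), KO replicate 2 (0.112) or KO replicate 3 (0.0627).

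The locus counted as Tagln is unusually wide. It spans chr9:45346779-45936058 on the minus strand, 589280 bases, where the Tagln gene of GENCODE M21 (GRCm38) spans 6440 bases at its upstream end, a ratio of 91.5. The deposited exon length is 13676 bases against 1988 annotated ones, so the counted model contains 11688 further bases. Within the span lie 18 other loci, 8 of them on the opposite strand, among them Fxyd6, Bace1 and Pcsk7 on the opposite strand and Cep164 and Rnf214 on the same one. Fxyd6 held 214 to 289 CPM in WT and 210 to 229 in KO, and Rnf214 held 30.8 to 34.9 and 31.7 to 38.8, so both overlapped between the groups. Cep164 held 27.1, 29.7 and 27.9 CPM in WT and 33.5, 34.5 and 33.6 in KO, higher in every KO library (log2 fold change 0.26, edgeR adjusted p = 0.144, not called). The direction of Cep164 was thus the opposite of that of the Tagln locus, and the part of these neighbours in the Tagln counts was not tested. How many of the Tagln counts lie in the annotated Tagln exons cannot be told from the table, so the fall is that of the counted locus.

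Acta2 was the only other member with a widened locus: 49234 bases at chr19:34206357-34255590 on the minus strand, 3.40 times the annotated 14501 bases. Its deposited exon length, 2226 bases, is 30 bases longer than annotated. The added span reaches over Stambpl1 on the opposite strand, which held 5.02 to 6.43 CPM in WT and 5.86 to 8.46 in KO, with overlap. The other 8 loci had the annotated span, apart from Notch3 with 46057 against 46033 bases. Of 50340 single-gene loci in the table, 784 (1.56%) were more than 2 times as wide as annotated and 77 (0.153%) more than 50 times, so a locus like that of Tagln is rare.

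**Figure D2:**
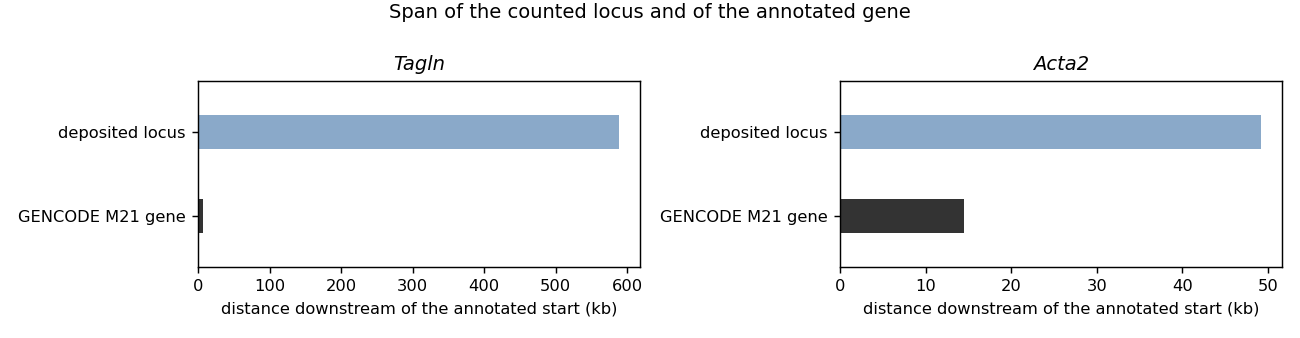
Span in kilobases, measured downstream from the annotated start, of the counted locus (blue) and of the GENCODE M21 gene (black) for the 2 members with widened loci; the axes differ. The Tagln locus is 91.5 times and the Acta2 locus 3.40 times as long as the annotated gene.

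Myl9 encodes the regulatory light chain of smooth muscle myosin, whose phosphorylation starts contraction. Its level was 16.1, 14.3 and 14.5 CPM in WT and 8.90, 9.60 and 12.2 CPM in KO. The groups did not overlap, and KO replicate 3 came nearest to WT. The log2 fold change was -0.55 (SE 0.15), with an unadjusted p of 0.00963 and an edgeR adjusted p of 0.113, so Myl9 was not called; only DESeq2 called it (0.0234). The locus, chr2:156775420-156781658 on the plus strand, has exactly the annotated span.

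Myh11 encodes the smooth muscle myosin heavy chain, the motor protein that is most restricted to this lineage. Its level was 4.51, 6.17 and 6.73 CPM in WT and 8.42, 4.11 and 9.69 CPM in KO. KO replicate 2 was the lowest of all 6 libraries and KO replicate 3 the highest, so the groups overlapped. The log2 fold change was 0.35 (SE 0.34; edgeR adjusted p = 0.576), opposite in sign to Acta2 and Tagln and not larger than the spread between libraries. It was 0.11 (adjusted p = 0.899) without KO replicate 3 and 0.64 (0.264) without KO replicate 2, so its size rests on these libraries; without WT replicate 1 it was 0.20.

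Des encodes desmin, the intermediate filament of muscle cells, which is also found in pericytes. Its level was 9.34, 13.6 and 12.5 CPM in WT and 11.5, 7.88 and 11.7 CPM in KO. KO replicates 1 and 3 lay between the WT values. The log2 fold change was -0.19 (edgeR adjusted p = 0.642), and its sign turned under total counts alone (0.023), equal Rn7sk counts (0.016) and limma-trend (0.030). With 1 library left out it ran from -0.33 (without WT replicate 1) to -0.027 (without KO replicate 2).

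Cnn1 encodes calponin 1, which binds actin in differentiated smooth muscle and slows its contraction. It was close to absent in WT, with 0, 3 and 0 counts, and low in KO, with 14, 20 and 57 counts. All 3 KO libraries exceeded all WT libraries, and the 91 KO counts against 3 WT counts gave a depth-adjusted ratio of 29.8 (95% exact interval 9.88 to 147, covering counting error only). The edgeR adjusted p was 0.0697, so Cnn1 was not called; DESeq2 (0.00215), limma-trend (0.0369) and equal Rn7sk counts (0.04997) called it. At its highest, in KO replicate 3, Cnn1 was still only 0.440 CPM, and without that library its edgeR adjusted p was 0.183.

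The pericyte genes open with Pdgfrb, the receptor for PDGF-B. Its level was 51.1, 88.6 and 76.7 CPM in WT and 68.4, 60.3 and 70.4 CPM in KO. All 3 KO values fell inside the WT range, which spanned a ratio of 1.73. The log2 fold change was -0.12 (edgeR adjusted p = 0.766) and its sign changed in 4 of 14 alternatives, so these libraries give Pdgfrb no stable direction.

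Notch3 encodes the Notch receptor of arterial smooth muscle and pericytes. It held 26.7, 58.2 and 51.8 CPM in WT and 40.8, 28.6 and 37.6 CPM in KO. WT replicate 1 was the lowest library and WT replicates 2 and 3 the highest, a ratio of 2.18 within WT that exceeded the difference between the groups. The log2 fold change was -0.35 (SE 0.30; edgeR adjusted p = 0.522). Leaving out WT replicate 1 gave -0.63 (adjusted p = 0.126), and leaving out WT replicate 2 gave -0.12 (adjusted p = 0.852); with KO replicate 2 left out it was -0.22. The deposited exon length of Notch3, 15010 bases, is 1.86 times the annotated one, and the locus overlaps Gm17276 on the opposite strand, which held 268, 124 and 243 CPM in WT and 141, 165 and 121 in KO. Gm17276 was high in WT replicates 1 and 3, of which the first was low and the other high in Notch3. The part of Gm17276 in the Notch3 counts was not tested.

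Rgs5 encodes a regulator of G-protein signalling that is among the most used pericyte markers. Its level was 47.5, 57.8 and 45.3 CPM in WT and 57.5, 54.5 and 91.4 CPM in KO. KO replicate 3 alone lay clearly above the rest, and KO replicates 1 and 2 lay inside the WT range. The log2 fold change was 0.43 (SE 0.22; edgeR adjusted p = 0.300) with all libraries and 0.16 (adjusted p = 0.587) without KO replicate 3, so its size rests on that library.

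Mcam encodes CD146, an adhesion molecule of pericytes, smooth muscle and some endothelium. It was the steadiest member: 29.5, 30.5 and 28.1 CPM in WT and 28.8, 29.6 and 31.3 CPM in KO. The values interleaved and the highest-to-lowest ratio was 1.08 in WT and 1.09 in KO. Its log2 fold change was 0.03 (SE 0.09; edgeR adjusted p = 0.886), the smallest SE among the 10 members; over the alternatives it ran from -0.0079 to 0.25.

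**Figure D3:**
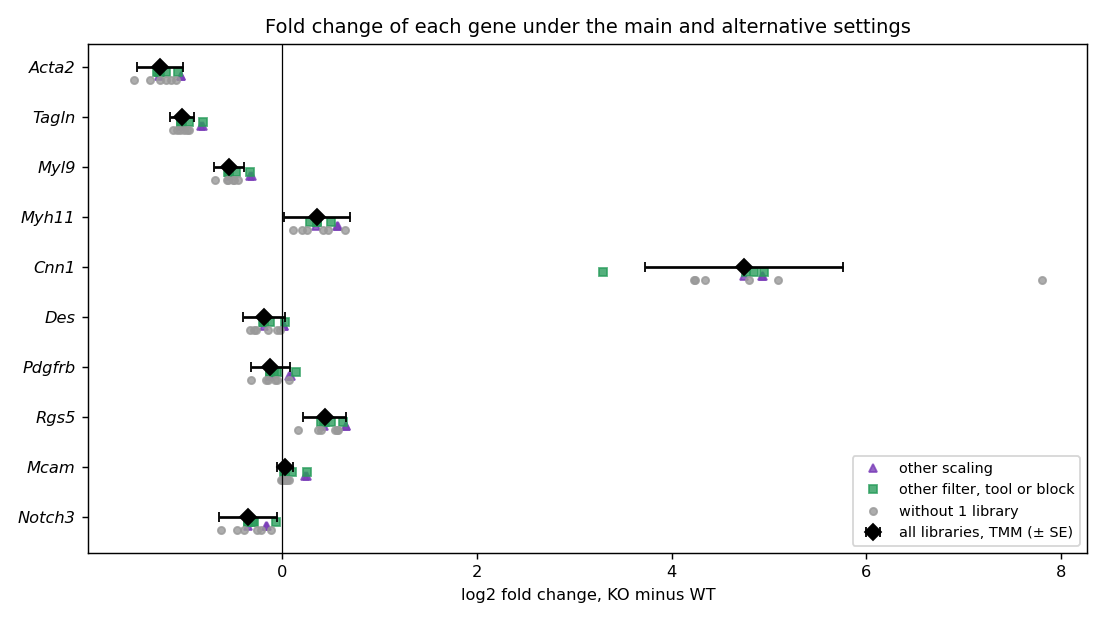
Log2 fold change (KO minus WT) of each gene with all libraries and TMM scaling (black diamond, bar ± SE) and under other scalings (purple), other filters, tools or the replicate block (green) and without 1 library (grey). Acta2, Tagln, Myl9 and Notch3 stay below 0 in every setting. Cnn1, Rgs5 and Myh11 stay above 0 in every setting that tested them, while Des, Pdgfrb and Mcam lie on either side of 0.

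Because the scaling of a library moves all its genes together, the members were also set against Mcam within each library, a ratio that needs no scaling. Per 100 Mcam counts, Acta2 held 55.1, 70.2 and 67.5 counts in WT and 24.9, 20.1 and 33.7 in KO. Tagln held 61.8, 69.4 and 68.3 in WT and 30.2, 31.3 and 34.0 in KO. Myl9 held 54.5, 46.8 and 51.4 in WT and 30.9, 32.4 and 38.9 in KO. None of these 3 ratios overlapped between the groups, so these 3 genes and Mcam differed unequally. The ratio does not show which of them moved. The 3 genes were already without overlap in CPM, and Mcam was nearly even at 28.1 to 31.3 CPM. Their ratios to Mcam therefore largely repeat those levels and are no separate support. Per 100 Pdgfrb counts, Acta2 (24.1 to 31.8 in WT, 9.85 to 14.97 in KO) and Tagln (23.9 to 35.7 and 12.7 to 15.4) again did not overlap, while Myl9 did (16.1 to 31.5 and 13.0 to 17.3). Per 100 Mcam counts Des, Myh11, Rgs5, Notch3 and Pdgfrb overlapped between the groups, and Cnn1 was higher in KO without overlap.

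**Figure D4:**
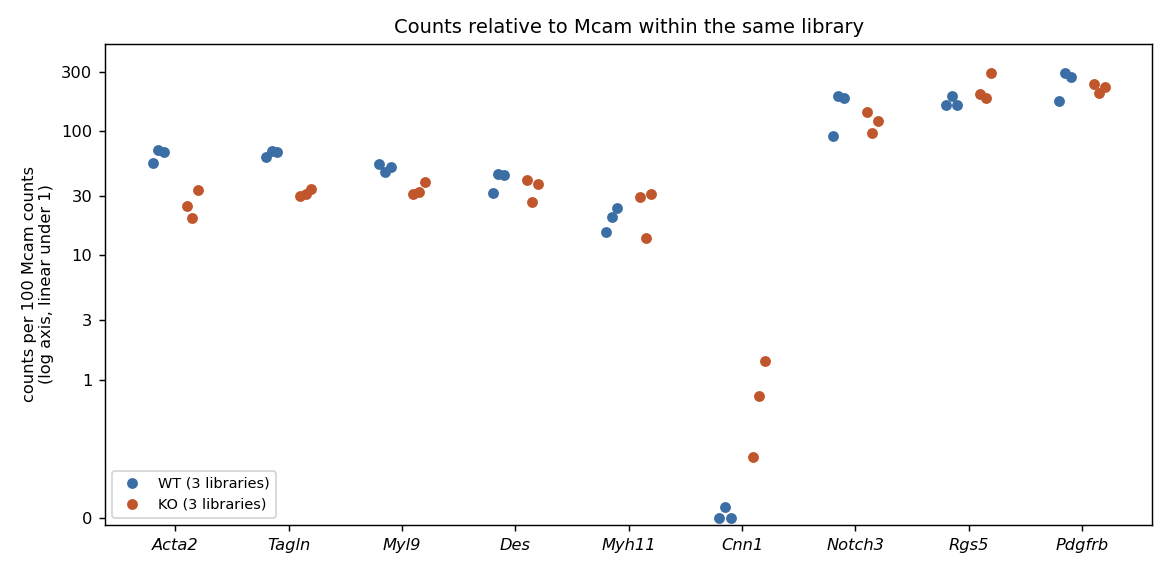
Counts of each gene per 100 Mcam counts of the same library (log axis, linear under 1; 3 WT libraries in blue, 3 KO in orange). Acta2, Tagln and Myl9 lie lower in KO without overlap and Cnn1 higher, and the other 5 genes overlap.

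Per kilobase of deposited exon length, the order of levels in WT was Myl9 (12.9 CPM per kb), Rgs5 (11.03), Pdgfrb (9.58), Acta2 (8.48), Mcam (7.85), Des (3.15), Notch3 (3.04), Tagln (1.43), Myh11 (0.764) and Cnn1 (0.0028). The ranges over the 3 libraries overlapped between each neighbouring pair from Myl9 to Mcam and between Des and Notch3; elsewhere neighbours were separate. In KO the order was Rgs5 (14.9), Pdgfrb (8.81), Myl9 (8.81), Mcam (7.99), Acta2 (3.54), Des (2.76), Notch3 (2.38), Myh11 (0.975), Tagln (0.697) and Cnn1 (0.101). There Acta2 overlapped with Des and not with Mcam. This order depends on the length used. With the annotated exon lengths, and all counts assigned to them, Tagln was at 9.82 CPM per kb in WT and 4.797 in KO. Pdgfrb was then at 13.2 and 12.1 CPM per kb, above Myl9 in both groups, and Notch3 at 5.63 and 4.41, above Des in both and above Acta2 (3.59) in KO.

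The members did not share 1 profile over the libraries. WT replicate 2 was the highest library for 5 genes (Acta2, Tagln, Des, Pdgfrb and Notch3) and KO replicate 3 for 4 (Myh11, Cnn1, Rgs5 and Mcam), while WT replicate 1 led for Myl9. By a fixed rule, 5 single-gene loci came closest to the members' mean profile of centred log2 CPM among 8087 protein-coding candidates with at least 10 CPM: Pdxk, Rras2, Otud3, Ccdc127 and Cers6, with root mean square distances of 0.0486, 0.0638, 0.0652, 0.0670 and 0.0702 over the 6 libraries. Their log2 fold changes ranged from -0.31 (Rras2) to -0.23 (Otud3) and none was called.

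Other smooth muscle genes were then taken from a list of 16, with 15 tested. None was called. A negative log2 fold change was found in 12 of 15 and a positive one in 3, with a median of -0.29. Over all tested loci 50.7% were negative. Some listed genes lay far above Acta2, Tagln and Myl9, such as Flna (272 CPM in WT) and Vcl (195 CPM). Which cells the counts of this list come from was not tested. The smallest p belonged to Csrp1, a LIM protein and known SRF target, at 80.0 ± 8.44 CPM in WT and 52.8 ± 4.68 in KO (log2 fold change -0.60, edgeR adjusted p = 0.0578). Only DESeq2 called Csrp1 (0.00131). Smtn, the actin-bound smoothelin, followed at 37.6 ± 1.71 and 29.4 ± 3.004 CPM (-0.35, adjusted p = 0.132). The gamma actin of visceral smooth muscle, Actg2, was nearly absent, with 3 counts over WT and 29 over KO. The muscle actins have near-identical coding sequences, and how reads that fit several of them were assigned is not given, so the Acta2 count is uncertain to that extent. Actg2 was listed with at most 22 counts in a library, Acta1 with 7 to 36 and Actc1 with at most 3, beside 453 to 2762 for Acta2.

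Of 10 listed SRF regulators 6 had a locus with no other coding gene and none was called. Log2 fold changes were negative in 4 and positive in 2, with a median of -0.12. Mrtfa, a coactivator that moves to the nucleus as actin assembles, was 45.4 ± 5.24 CPM in WT and 32.8 ± 1.98 in KO (log2 fold change -0.47, edgeR adjusted p = 0.0886). Only DESeq2 called Mrtfa (0.0109). Mrtfb, which encodes another MRTF protein, was more abundant and even between the groups. It was 130.5 ± 14.4 CPM in WT and 130.7 ± 5.88 in KO (0.0022, edgeR adjusted p = 0.993). Myocd, the smooth muscle and heart coactivator myocardin, held 5, 24 and 0 counts in WT and 50, 30 and 60 in KO (2.37, adjusted p = 0.200), the direction of Cnn1 and not of Acta2. The locus of Srf itself, which also holds Mir6976, was 49.8 ± 12.7 and 37.9 ± 4.05 CPM (-0.39, adjusted p = 0.283). It is listed with a width of 165654 bases, and how many of its counts lie in annotated Srf exons was not checked.

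Among 16 other pericyte loci 1 was called, where 1.84% of all tested loci were. This was Gucy1b1, the beta subunit of the nitric oxide receptor guanylate cyclase, higher in KO. It held 16.0, 16.0 and 15.7 CPM in WT and 22.4, 23.7 and 24.4 CPM in KO, without overlap (log2 fold change 0.56, SE 0.09, edgeR adjusted p = 0.0434). The call held in 6 of 14 alternatives and was lost without any 1 of the 6 libraries (adjusted p from 0.0506 to 0.159), without the count filter (0.0546) and with the replicate block (0.154). Its partner subunit Gucy1a1 was 39.6 ± 7.97 and 60.9 ± 3.95 CPM (0.62, edgeR adjusted p = 0.0921). Gucy1a1 was called by DESeq2 (0.0119) and by edgeR with WT replicate 2 left out (0.0264). Anpep, an aminopeptidase of pericytes and of other cells, varied from 13.6 to 184 CPM within WT and was 7.15 to 20.2 CPM in KO (-2.93, edgeR adjusted p = 0.142). Only DESeq2 called Anpep (0.0303). Over this list 9 log2 fold changes were negative and 7 positive, with a median of -0.04.

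The partners of Pdgfrb and Notch3, 12 ligands, targets and cofactors, held no called gene, and 5 were negative and 7 positive with a median of 0.11. Hes1, a direct Notch target, was 35.2 ± 3.45 CPM in WT and 24.3 ± 0.139 in KO (log2 fold change -0.54, edgeR adjusted p = 0.0569). Hes1 was called by DESeq2 (0.000603) and by edgeR with WT replicate 2 left out (0.0398). Jag1, a Notch ligand, was 19.4 ± 0.648 and 24.3 ± 1.47 CPM (0.32, edgeR adjusted p = 0.119), and only DESeq2 called it (0.0351). Another Notch target, Hey1, named after its values were seen, was 2.27 ± 0.581 and 3.94 ± 0.567 CPM, higher in every KO library (0.79, adjusted p = 0.135). With all libraries edgeR called none of these 3 genes, and Hes1 differed in sign from Jag1 and Hey1.

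Markers of other cell types were summed per library. For comparison, 1.84% of all tested loci were called and 50.7% had a negative log2 fold change. The 11 endothelial loci were all negative with a median of -0.36, none called, and summed to 901, 1097 and 1077 CPM in WT and 864, 707 and 841 in KO, without overlap. Of the 12 listed endothelial genes, Egfl7 was left out because its locus holds a second coding gene. That locus went the other way, at 35.1 ± 4.05 CPM in WT and 42.5 ± 7.32 in KO (log2 fold change 0.27, edgeR adjusted p = 0.354). The 12 fibroblast and capsule genes had 10 negative values, a median of -0.25 and no call, and their sums of 463 to 611 CPM in WT and 362 to 473 in KO overlapped. The 6 cortex loci were all negative with a median of -0.42 and no call. The 8 chromaffin genes were all positive with a median of 0.81, and Chga, Dbh and Phox2a were called higher; they summed to 1854 to 2642 CPM in WT and 3788 to 4194 in KO. The contractile members summed to 64.4, 76.6 and 71.9 CPM in WT and 44.8, 37.1 and 55.2 in KO, and the pericyte members to 155, 235 and 202 and to 195, 173 and 231. The part of the endothelial and chromaffin shifts in the levels of Acta2, Tagln and Myl9 was not tested.

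Striated muscle genes, relatives of the actins and myosins among the members, were low: 18 genes summed to 3.68 to 5.08 CPM in WT and 6.11 to 8.59 in KO, and Myh2 and Myh4 were at 0 in all libraries. Myl1 held 75 to 414 counts and Tnnt2 47 to 76 in each library. Only 10 passed the filter and Actn2, the sarcomeric alpha-actinin, was called higher, with 0 counts in each WT library and 314, 106 and 263 in KO (edgeR adjusted p = 0.0178). The 7 adipocyte genes summed to 158 to 269 CPM in WT and 135 to 186 in KO, with overlap and none called. Of these 5 were negative and 2 positive. The sum hides Ucp1, named after its values were seen, with 717, 267 and 57 counts in WT and 6, 10 and 25 in KO. Its log2 fold change was -4.68 (edgeR adjusted p = 0.0683), without overlap between the groups. The 6 kidney genes summed to 0.561 to 1.204 CPM in WT and 0.661 to 1.17 in KO, with Umod and Slc12a1 at 0 in every library. The hepatocyte loci, at 3110 CPM in KO replicate 3, coincide there with the highest values of Rgs5, Cnn1, Myh11 and Mcam; their part in those values was not tested. Vtn, a pericyte gene that the liver also makes and that was named after its values were seen, was 39.5 CPM in that library and at most 0.701 in the others.

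**Figure D5:**
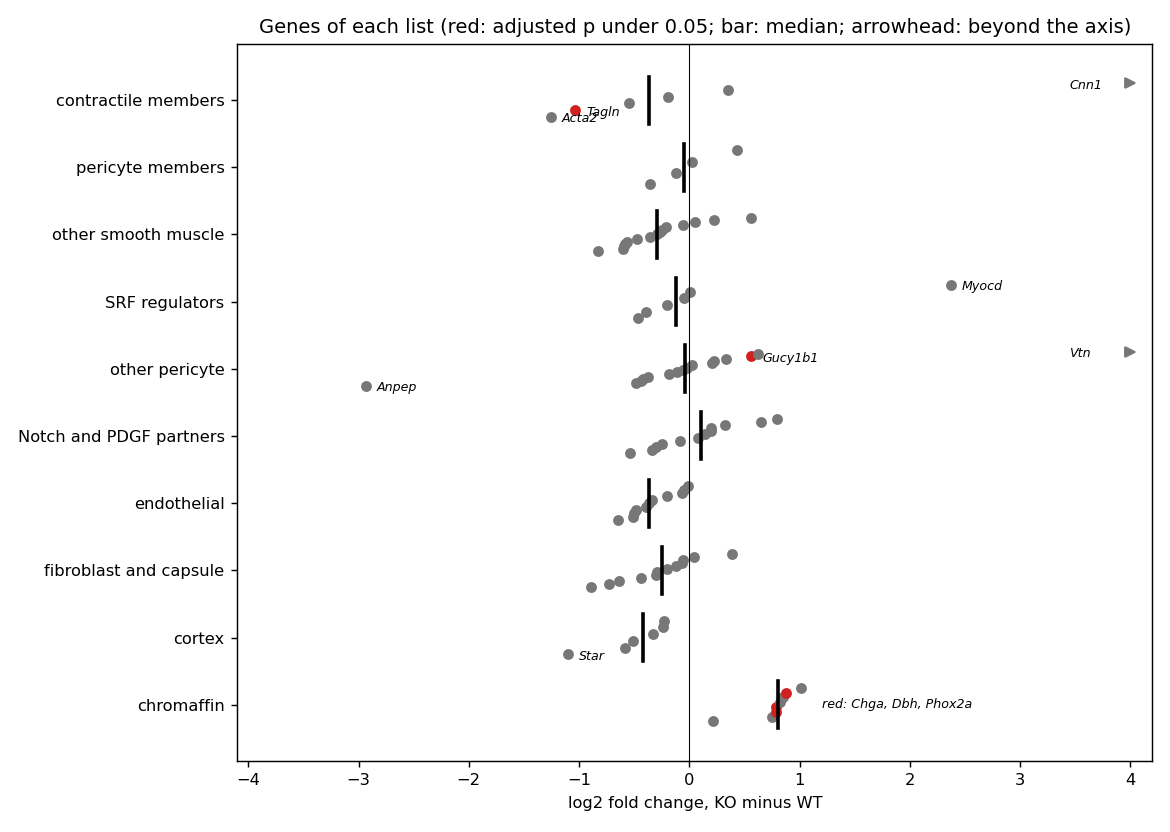
Log2 fold change (KO minus WT) of tested genes of the member lists and most companion lists, with called genes in red, the list median as a bar and values over 4 drawn as arrowheads. The striated muscle list, with the called Actn2, and the hepatocyte, adipocyte and kidney lists are not drawn. Loci that hold a coding gene from outside the list are also left out. Of the genes drawn, Tagln, Gucy1b1, Chga, Dbh and Phox2a were called; endothelial and cortex genes all lie below 0 and chromaffin genes all above 0.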

How the data were processed

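RNA of 6 adrenal gland libraries was measured. The authors deposited whole-number read counts per locus, raw per the file headers, for a gene model that merges and extends some genes. Trimmomatic, STAR, Picard, StringTie, edgeR and the GRCm38 genome are named in the submitters' processing notes. The counting program and its strand setting were not given in the sources used here. Whether reads of overlapping opposite-strand genes were kept apart is therefore not known. The authors also deposited log2 CPM values, used in 1 alternative, and other columns of locus and exon lengths, used for levels per kilobase; 0 sample columns stayed unmapped, and the authors' columns of values per group were not used. The deposited log2 values scaled to Rn7sk entered no test.

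Loci without a name (1.39% to 2.04% of a library's counts) were left out. Named loci were filtered with filterByExpr, scaled by TMM and tested two-sided with edgeR 4.0.16 (robust quasi-likelihood F-test, R 4.3.3), with Benjamini-Hochberg adjustment over 21358 loci; called means an adjusted p under 0.05. SE values were taken as the log2 fold change over the root of F. Alternatives used RLE factors, total counts, equal Rn7sk counts, filters of 1 count or of 10 CPM in 3 libraries, DESeq2 1.42.0, limma-trend (3.58.1), the replicate block, and each library left out, 14 in all. The test was checked on simulated data in which 200 loci, none of them at a low level, were changed. At a true log2 change of -1 it called 21 of 50 loci, and at 1 it called 17 of 50. At -2 it called 42 of 50 and at 2 it called 47 of 50. Of 21158 unchanged loci 12 were called. A change of 2-fold was thus often missed in that setting. In the measured data 22.2% of loci had an unadjusted edgeR p under 0.05, a share the simulation did not copy. The rate of missed changes may therefore differ here, and it does not cover low genes such as Cnn1. Counting intervals cover counting error only.

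The members and lists were chosen with earlier results of these data known. Named were all members, Armc5, and the called genes and 2 smallest p of each smooth muscle, SRF, pericyte and Notch or PDGF list. Also named were the called genes of other lists and the 5 loci nearest to the members' mean profile. Srf, Mrtfb, Actg2, the actin paralogs, neighbouring loci, Flna, Vcl, Hey1, Egfl7, Myl1, Tnnt2, Ucp1 and Vtn were named outside that rule, after their values were seen. A locus holding a second coding gene was left out of its list. No 2 libraries held the same values.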

Additional observations from a re-analysis of the deposited data

How the results depend on the processing

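Over all named loci 393 were called, 76.6% of them higher in KO. The count was 672 with total counts alone (94.8% higher), 711 with equal Rn7sk counts (94.1%), 2626 with DESeq2 (60.5%) and 975 with limma-trend (94.5%), and 15 to 644 with 1 library left out. These 2 scalings put the median of all loci at 0.22 and 0.19, against -0.0063, and the members' median at 0.06 and 0.04, lower than that median by 0.17 and 0.15 and so by about as much as with TMM (0.15). Calls among the members were 0 with total counts alone, 4 with DESeq2, 2 with limma-trend and 0 to 1 with 1 library left out; WT replicate 3 and each KO library ended the call of Tagln. With the replicate block, 5 loci and 0 members were called, in a fit with fewer residual degrees of freedom. Residuals of same-numbered libraries correlated at -0.0466, 0.0220 and -0.118. These values show no pairing by number, but residuals from 3 libraries per group cannot exclude it. The sign of Des turned with total counts alone (0.023), equal Rn7sk counts (0.016) and limma-trend (0.030). The sign of Pdgfrb turned with the same 3 settings (0.087, 0.069 and 0.14) and without WT replicate 2, over a range of -0.32 to 0.074 with 1 library left out. That of Mcam turned without WT replicate 3 (-0.0061) or KO replicate 3, over a range of -0.0079 to 0.073. Acta2, Tagln, Myl9 and Notch3 kept a negative sign in all 14 alternatives, and Rgs5 a positive one. Cnn1 and Myh11 kept a positive sign in the 13 that tested them, as the filter of 10 CPM left both out. The members' median ran from -0.33 to 0.01 with 1 library left out. Depth limits Cnn1, whose WT counts were 0, 3 and 0; the other members held at least 313 counts per library.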

Other observations

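Acta2, Tagln and Myl9, the 3 members without overlap and with lower levels in KO, were used together as a profile after their values were seen, and the single-gene loci nearest to it were listed as a description with no test of the resemblance. The nearest was Id3, an inhibitor of helix-loop-helix factors, at 19.8, 21.5 and 21.5 CPM in WT and 11.5, 9.60 and 14.5 in KO (root mean square distance 0.0923). Next came Rhob, a small GTPase of endosomes and actin that is induced by growth factors and stress, at 297, 273 and 294 CPM in WT and 148, 155 and 164 in KO, which was itself called (log2 fold change -0.89, edgeR adjusted p = 0.0161). Bcl3, an IkappaB-family cofactor, was called too (-0.74, adjusted p = 0.0489). The collagen receptor Mrc2 (-0.84, adjusted p = 0.0795) and the small heat shock protein Hspb1 (-0.72, adjusted p = 0.0807) followed and were not called. All 5 were lower in every KO library than in every WT library, which the choice of the profile fixes.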
